A study of Mus musculus with 12 samples.

Results

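Remission microglia were compared with acute-phase microglia across all genes, to describe what is lowered, what comes back and what is gained as acute disease gives way to remission. The members are the 3 libraries labelled remission and the 3 labelled acute, 6 of the 12 libraries in the series. All were made from spinal cord microglia of the mouse strain Biozzi ABH with crEAE, a relapsing form of experimental autoimmune encephalomyelitis (EAE), an immune attack on myelin that models multiple sclerosis. The cells were sorted by flow cytometry as CD11b-positive, CD45-intermediate and Ly-6C-negative, and each library is labelled as microglia from 1 phase. The 3 control libraries, from the same strain, labelled control with no crEAE phase, were used to say whether a gene had risen or fallen in the acute phase and where it stood in remission. The 3 chronic-phase libraries entered only the shared model. The labels give no age, sex, immunisation or day of disease. The study counts mice, 3 in each phase, and nothing in the labels says that the acute and remission libraries came from the same mice.

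Microglia are the resident macrophages of the central nervous system. At rest they depend on signalling through Csf1r and TGF-beta and carry a set of sensing genes that includes P2ry12, Tmem119 and Cx3cr1. In inflamed tissue interferon gamma from T cells acts through factors such as Irf1 to induce GTPases, antigen presentation and nitric oxide synthesis. Near damaged myelin, microglia can take on a program that handles lipid and lysosomal load, marked by Apoe, Lpl, Spp1, Gpnmb and Igf1. When disease remits, myelin debris still has to be cleared while the inflammatory genes are turned down.

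Total counts were 4173825 to 4669475 in the acute libraries and 3992885 to 5247752 in the remission libraries. The 6 largest features, Lars2 among them, and the mitochondrial genes took a larger share in the acute libraries (62.4 to 64.1% and 5.17 to 5.74%) than in remission (56.4 to 60.4% and 2.51 to 3.81%). This left 1266782 to 1459329 counts per acute library and 1442371 to 2022456 per remission library. Levels are therefore given as CPM, counts relative to a library total scaled by TMM, a trimmed mean of ratios between libraries. Log2 CPM correlated across the 12545 tested genes at r = 0.955 to 0.965 among acute libraries, 0.942 to 0.959 among remission libraries, 0.79 to 0.863 between the 2 phases and 0.916 to 0.94 between remission and control. These are correlations across genes, which are not replicates. The sort checks held in part: Ptprc, which encodes CD45, stood at 434, 441 and 398 CPM in the acute libraries and 395, 398 and 486 in remission, and Itgam, which encodes CD11b, at 61.7, 96.7 and 99.6 CPM in acute and 109, 79.2 and 112 in remission. Ly6c2, a gene for the Ly-6C antigen that the gate removed, stood at 76.5, 74.6 and 42.7 CPM in the acute libraries, against 0.369, 0 and 0.797 in remission and 0 in all 3 controls. Remission replicate 1 stood apart in genes of myelin, astrocytes, neutrophils and red cells, and remission replicate 3 in immediate-early genes and inflammatory brakes, as given with those lists.

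The promoter pieces of 4 interferon gamma targets that were lowered and of 4 lysosomal genes that were raised are shown first. These 8 genes were chosen because each carries the motif printed for its set. They do not stand for every carrier: of the lysosomal genes with the motif, Gla fell and Lamp1 was not called. The lysosomal set as a whole moved in both directions, as described below. The sequences are RefSeq's, on GRCm38.p6, from the 250 bases before a start site, and capitals mark the motif with up to 20 bases on each side. In the first set the motif is GAAANNGAA, the core of an interferon response element, and in the second GTCACGTG, a CLEAR-like E-box found at lysosomal genes; both strands were searched, so a motif can be printed as its reverse complement.
Irgm1, chr11:48871421-48871470, minus strand: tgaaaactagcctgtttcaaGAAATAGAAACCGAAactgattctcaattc
Igtp, chr11:58199502-58199550, plus strand: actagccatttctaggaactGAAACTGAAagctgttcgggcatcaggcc
Gbp2, chr3:142620585-142620633, plus strand: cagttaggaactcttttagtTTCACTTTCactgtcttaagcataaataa
Cxcl10, chr5:92349074-92349122, minus strand: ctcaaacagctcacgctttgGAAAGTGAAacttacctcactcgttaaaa
Ctsd, chr7:142387898-142387945, minus strand: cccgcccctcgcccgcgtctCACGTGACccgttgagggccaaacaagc
Ctsa, chr2:164833739-164833772, plus strand: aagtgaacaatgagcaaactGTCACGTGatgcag
Naglu, chr11:101069999-101070046, plus strand: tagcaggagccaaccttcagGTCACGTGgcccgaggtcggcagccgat
Glb1, chr9:114401008-114401055, plus strand: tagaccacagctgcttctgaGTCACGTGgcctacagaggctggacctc
Irgm1 carries 2 overlapping copies of the interferon motif. Of the 24 tested interferon gamma genes 15 had a RefSeq window, and 13 of these 15 held GAAANNGAA; by windows the share was 76.5%, against 6.25% of the windows of all tested genes, 8.52% for genes lower in remission, 5.36% for genes higher in remission and 0 of 24 windows of homeostatic microglial genes. GTCACGTG was in 18.4% of the windows of lysosomal genes (7 of 38) and in 3.37% of those of all tested genes. It was in 3.21% of the windows of genes higher in remission and 3.35% of those lower. GAAANNGAA was in 37.5% of type I interferon windows (9 of 24). NF-kB-like (GGGNNTTCC) and PU.1-like (GAGGAAGT) motifs were searched as well. The NF-kB-like one was in 6.11% of windows for lower, 6.08% for higher and 6.49% for all tested genes. For the PU.1-like one the shares were 3.14%, 3.02% and 2.59%. A match describes letters in a window and is no evidence that a factor binds there.

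At an adjusted p under 0.05 in edgeR's quasi-likelihood test, 4634 of the 12545 tested genes (36.9%) differed between remission and acute. Of these, 2205 were higher in remission (17.6% of tested genes) and 2429 lower (19.4%), and 1173 and 1405 of them differed by more than 2-fold. Counts of called members in the gene lists below are to be read against the 17.6% and 19.4%. In 6047 genes (48.2%) all 3 libraries of one phase lay above all 3 of the other, and this held for 2108 of the higher and 2352 of the lower genes. Scaling by library totals alone, which counts the 6 largest and the mitochondrial features, moved the median of all genes by 0.31 on the log2 scale. It turned the split into 3543 higher and 1434 lower, 71.2% higher in place of 47.6%. The groups differ in those features as given above, so directions are stated relative to the TMM median. Each gene given here as lower or higher, except H2-Ob, had all 3 libraries of one phase above all 3 of the other, which the rule for naming genes asked of many of them.

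**Figure D1:**
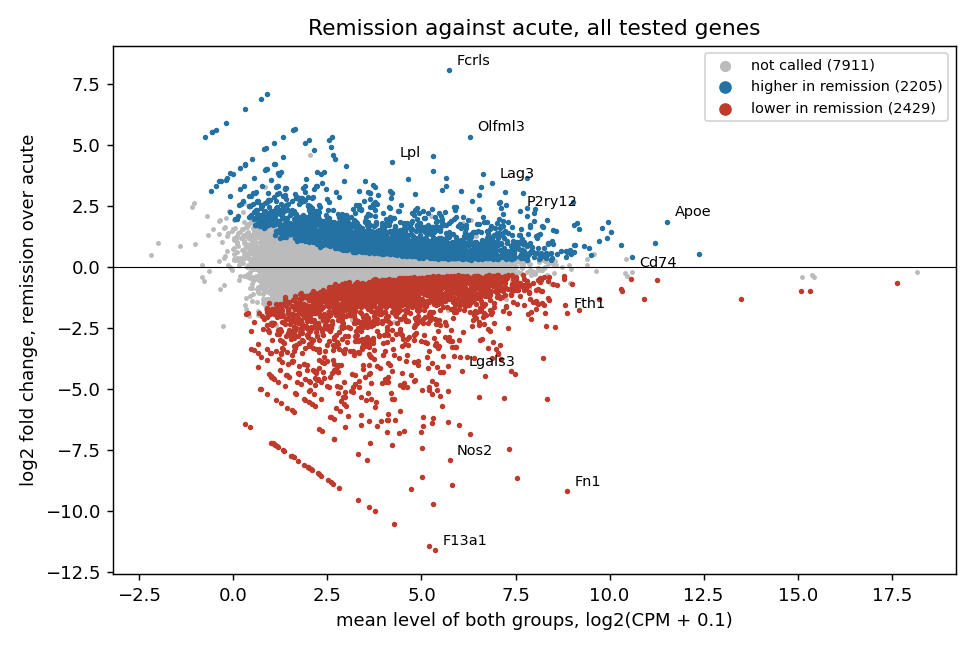
Log2 fold change of remission over acute (y axis) against the mean level of both groups as log2(CPM + 0.1) (x axis) for the tested genes, 1 point each; blue points were called higher in remission (2205), red points lower (2429), and the rest were not called (7911). The lower diagonal streaks are genes with no count or few counts in one phase, whose fold change depends on the prior count of the fit; F13a1 and Fn1 lie lowest and Fcrls highest among the labelled genes.

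Most of the difference ran against the acute change. Against control, 23.7% of tested genes were higher and 20% lower in the acute phase, and 6.06% were higher and 3.25% lower in remission. Of the 2429 genes lower in remission, 2007 (82.6%) had been called higher in acute than control, and of the 2205 higher genes 1756 (79.6%) had been called lower. The contrasts share libraries, so these shares describe where genes stood and test nothing further. Among lowered genes, 1693 were no longer called against control, 293 stayed above it, 21 ended below it, 416 had shown no acute rise and 6 had already fallen in the acute phase. Among raised genes, 1572 were no longer called against control, 165 stayed below it, 19 ended above it, 114 were newly gained (no acute call, above both acute and control in remission), 305 were above acute with no acute call and not above control, and 30 had risen in the acute phase and rose again. A further 256 acute-raised genes were retained, above control in remission and not called against acute. A gene not called against control is not thereby shown to equal it. Leaving out 1 library moved several of these counts: 293 became 195 without control replicate 1, 165 became 96 without control replicate 2, 305 became 472 and 489 without control replicates 1 and 2, 30 became 19 without acute replicate 1, and 256 became 408 without remission replicate 2. The 21 genes that ended below control became 4 to 12 without control replicate 1, 2 or 3, acute replicate 2 or remission replicate 2 or 3, the 19 that ended above became 7 to 9 without control replicate 1, 2 or 3, and the 6 became 2 or 3 without acute replicate 1, acute replicate 3 or control replicate 2.

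**Figure D2:**
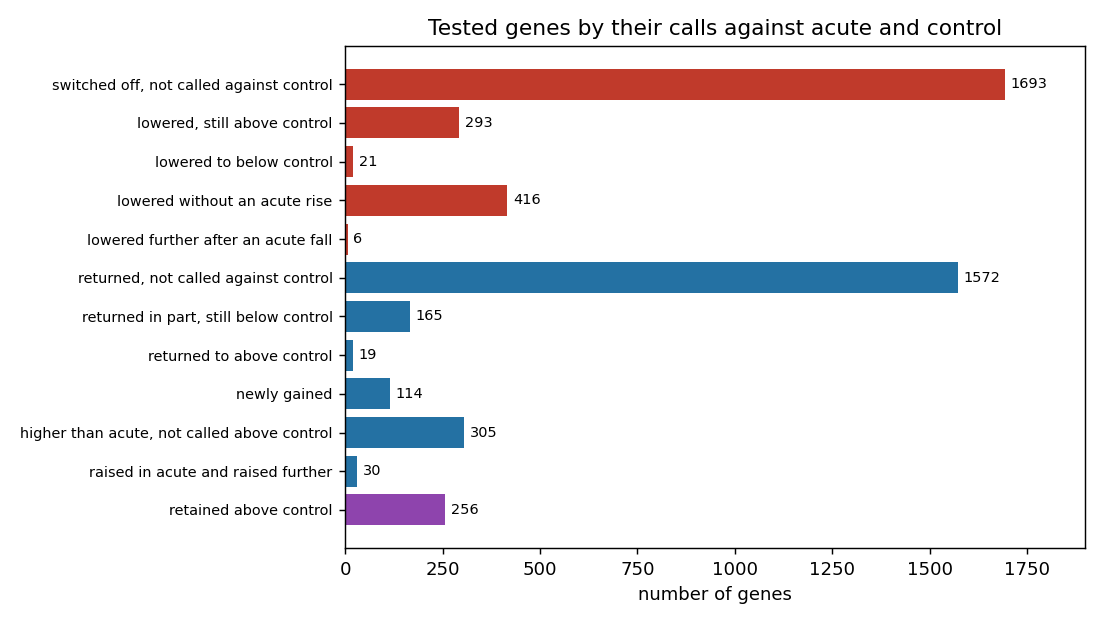
Number of tested genes (x axis) in each class of calls, with red bars for genes lower in remission than acute, blue bars for genes higher and a purple bar for genes raised in acute and retained. The 2 longest bars, 1693 and 1572 genes, are genes that had changed in the acute phase and were no longer called against control.

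Monocyte and recruited macrophage markers fell throughout, and 3 of them (F10, Fn1 and Clec4e) were among the 10 largest falls. All 21 tested markers of that list were lower in remission (median log2 fold change -6.33, against -0.01 for all tested genes). Setting genes without a remission count at the floor of 3 counts left that median unchanged. Markers near 0 in control and remission, such as F10, could pass the filter on low counts only through acute or chronic libraries. The count of lower members is in part set by that filter. The largest fall was in F13a1, listed here as a border macrophage marker, which encodes a coagulation factor XIII subunit (ENSMUSG00000039109, chromosome 13, 36867178 to 37050244). It stood at 81.5, 105 and 60.2 CPM in the acute libraries and had no count in remission. With 912 acute counts and the floor of 3 counts over the remission group it was at least 399-fold lower. F10, for coagulation factor X, stood at 88.5, 76.2 and 54.0 CPM and again at 0 in all 3 remission and all 3 control libraries, at least 354-fold lower. Fn1, for fibronectin, went from 1151, 928 and 746 CPM to 1.66, 2.10 and 0.797 (log2 fold change -9.19 ± 1.3, SE, adjusted p = 0.000697), and the groups did not overlap. The lectin receptor genes Clec12a and Clec4e, the amplifying receptor Trem1 and the orphan receptor Gpr141 behaved alike: Clec12a and Trem1 had no remission count, for falls of at least 132.5-fold and 118-fold, Clec4e had 1 remission count against 587 and Gpr141 1 against 888, 1165 times lower (95% counting interval 209 to 46070, counting error only). Glipr2 and Ms4a8a were at 0 in remission, at least 96.2-fold and 67.4-fold lower. Slfn4 was also at 0, at least 192-fold lower, but its call was lost with limma-voom and with a model of only the groups compared, and its acute libraries spread over 65.1, 41.0 and 10.1 CPM.

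Ccr2, the receptor that brings monocytes into tissue, fell from 145, 146 and 88.0 to 2.03, 0.957 and 1.06 CPM (-6.49 ± 0.31, adjusted p = 3.11e-11), against control values of 2.85, 1.58 and 3.88. Arg1, for arginase, fell from 154, 159 and 152 to 1.85, 0.383 and 1.86 CPM. Ly6i, another Ly-6 family gene, fell from 48.8, 52.5 and 32.9 to 0.738, 1.53 and 2.92 CPM and stayed above control. The summed level of the 22 listed monocyte markers was 2877, 2455 and 1865 CPM in acute replicates 1 to 3, 30.99 to 41.9 CPM in remission and 27.74 to 68.19 CPM in control, so remission and control overlapped; 1 of the 22 was at 0 in remission and 8 were at 0 in control. The acute library with the highest monocyte sum had the lowest homeostatic sum (3749 CPM), and the one with the lowest monocyte sum had the highest (5777 CPM). In bulk libraries fewer cells of a type and less RNA per cell cannot be told apart. The monocyte markers moved with each lowered group described here, and their part in those results was not tested.

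Lymphocyte and granulocyte genes fell as well. Of the 20 listed T and NK cell markers 9 passed the filter on low counts. Those near 0 in control and remission, such as Cd4 and Lck, could pass it only through acute or chronic libraries. How many tested members were lower is therefore in part set by the filter. All 9 tested T and NK cell markers were lower (median -5.46): Cd3e, part of the T cell receptor complex, went from 13.2, 15.7 and 8.60 CPM to a single count in remission, Cd4 from 30.1, 20.8 and 16.3 to 0.923, 0 and 0.531 CPM and Lck, the kinase below the receptor, from 20.8, 16.5 and 9.48 to 0.554, 0.191 and 0 CPM. The sum of the 20 markers ran from 99.6 to 149 CPM across the acute libraries and from 6.91 to 12.9 CPM in remission. In control it was 25.5 to 38.7 CPM, where 13 of the 20 were at 0. Most of the control sum was Il7r, at 27.2, 35.8 and 22.7 CPM in control and 5.17, 7.08 and 5.05 in remission. The lower remission sum therefore does not show that the other markers lay below control. Of 11 tested neutrophil markers 7 were lower and 1, Csf3r, was higher; DESeq2 called 3 lower, and 4 were lower without acute replicate 2. Csf3r, the receptor for granulocyte colony-stimulating factor, stood at 378, 348 and 456 CPM in control, 116, 155 and 151 in acute and 458, 426 and 453 in remission, so it was low in acute and overlapped control in remission. Without Csf3r the neutrophil sum was 206, 446.5 and 128 CPM in the acute libraries and 62.2, 2.30 and 1.06 CPM in remission, with remission replicate 1 the high library. Mmp8, a neutrophil collagenase, fell from 14.0, 27.4 and 11.6 to 1.29, 0 and 0 CPM; without remission replicate 1 the list's median went from -3.61 to -7.12.

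**Figure D3:**
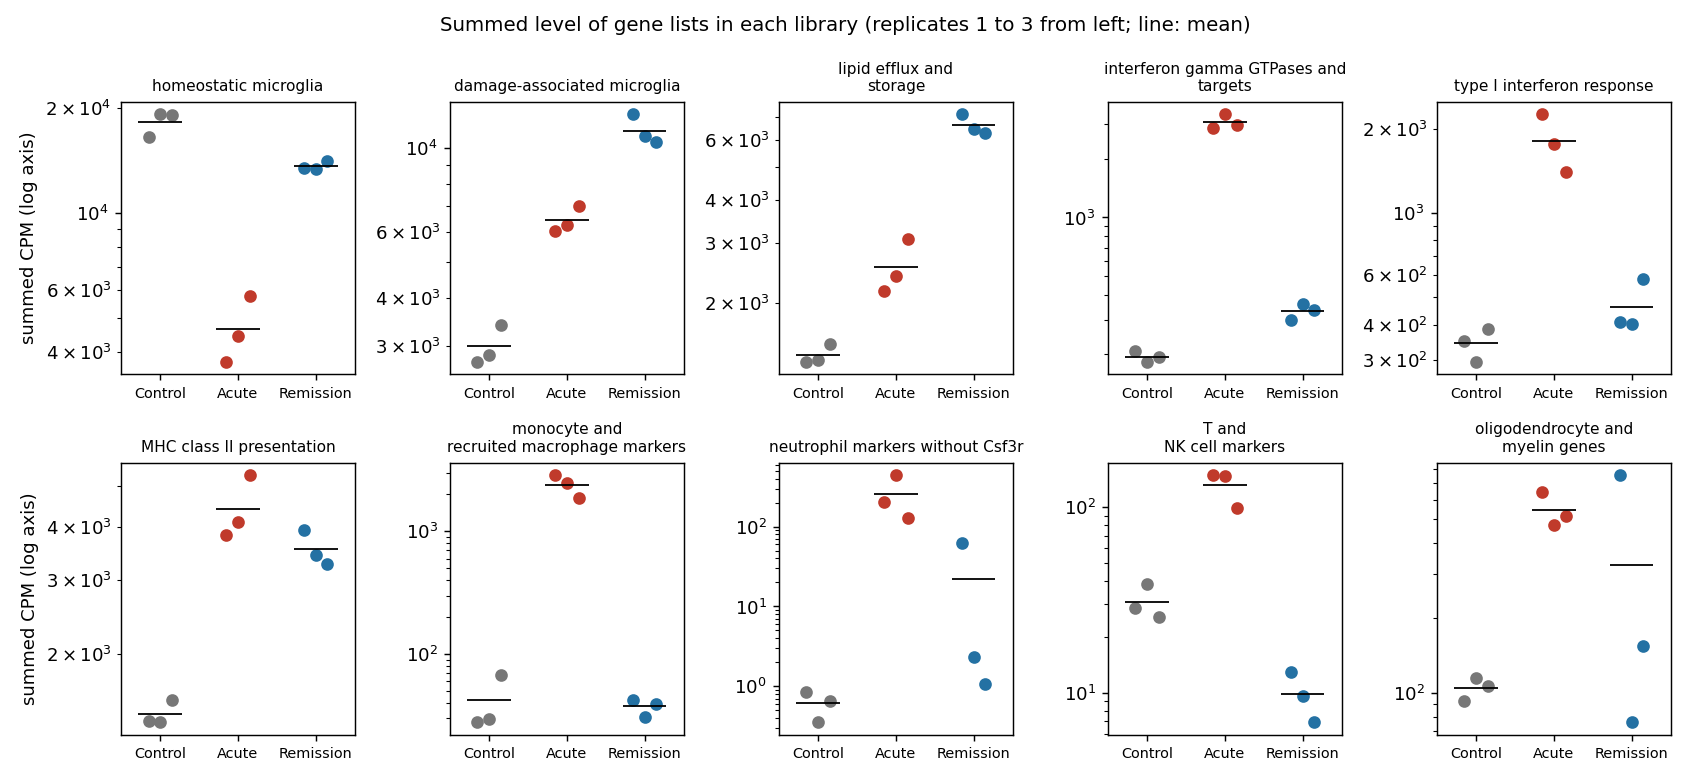
Summed CPM of 10 gene lists (y axis, log scale) in each control, acute and remission library (x axis; replicates 1 to 3 from left, line at the mean). Monocyte and T cell sums lie lower in every remission library than in every acute one, homeostatic sums lie higher (13310 to 14020 CPM against 3749 to 5777 CPM), and remission replicate 1 stands apart in the neutrophil and myelin panels.

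The interferon gamma response was lowered as a whole. All 24 tested GTPase and target genes were lower in remission (median log2 fold change -3.51), 20 of them no longer called against control and 4 (Cd274, Cxcl9 and Iigp1 among them) still above it. Irf1, the transcription factor that relays interferon gamma, stood at 195, 218 and 199 CPM in acute and 37.8, 45.9 and 40.1 in remission (-2.30 ± 0.19, adjusted p = 5.1e-08). Irgm1, an immunity-related GTPase, went from 192, 189 and 178 to 30.6, 30.6 and 36.4 CPM. Ifi47, another GTPase of the family, went from 72.9, 84.7 and 54.5 to 2.21, 2.30 and 1.86 CPM (-5.03 ± 0.45, adjusted p = 1.9e-06). The libraries of the 2 phases did not overlap for these genes. The genes whose promoter pieces are printed above moved in the same way: Igtp fell from 87.7, 101 and 89.5 to 11.1, 14.3 and 13.3 CPM. Gbp2 fell from 342, 371 and 304 to 12.9, 19.3 and 16.5. The chemokine Cxcl10 fell from 109, 114 and 70.2 to 2.40, 3.25 and 13.6, where remission replicate 3 was the highest. The GTPases are a family of close copies, so reads may be shared between Tgtp1 and Tgtp2 or among the Gbp genes, and single values of these are uncertain. The list's sum fell from 2852 to 3372 CPM in acute to 300.1 to 361 CPM in remission, against 183 to 207 CPM in control.

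Among type I interferon genes 29 of 31 tested members were lower in remission (median -2.28) and 6 of them stayed above control. Parp14, a mono-ADP-ribosyltransferase, stood at 326, 248 and 248 CPM in acute and 82.5, 85.1 and 122 in remission, and was not called against control. Oasl2, of the oligoadenylate synthetase family, fell from 112, 141 and 101 to 14.4, 20.9 and 21.2 CPM. Ifi204, a DNA sensor, fell from 85.9, 78.9 and 59.3 to 9.60, 8.61 and 7.17 CPM, and both remained above control (log2 fold changes over control 1.82 and 3.17). Isg15, a ubiquitin-like protein, was at 20.5, 10.9 and 6.52 CPM in the acute libraries, with replicate 1 the highest, and at 0.923, 0.765 and 2.12 in remission.

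Effector metabolism fell with the interferon genes. Of 12 tested genes for arginine, nitric oxide and itaconate handling 10 were lower (median -2.09). Nos2, the inducible nitric oxide synthase (chromosome 11, 78920787 to 78960254), stood at 129, 109.8 and 82.1 CPM in acute and 0.369, 0.574 and 0.266 in remission (-7.92 ± 0.36, adjusted p = 1.12e-11). Acod1, which makes itaconate, went from 104, 116 and 89.5 to 1.11, 1.15 and 1.59 CPM and was at 0 in control. Ass1, which recycles citrulline to arginine, went from 45.1, 42.1 and 24.6 to 0.738, 0 and 2.12 CPM. The arginine transporter Slc7a2 went from 93.9, 95.7 and 81.2 to 5.35, 6.50 and 1.06 CPM. With library totals alone 2 members of the list were called higher.

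Among 22 tested cytokines and chemokines 8 were lower (36.4%) and 3 higher (13.6%), against 19.4% and 17.6% of all tested genes (list median -0.50). Il1b fell from 102, 58.9 and 62.2 to 2.03, 2.68 and 4.25 CPM (-4.68 ± 0.35, adjusted p = 6.03e-08). Tnf fell from 32.4, 21.3 and 18.7 to 2.21, 3.06 and 1.33 CPM, and neither was called against control (2.56, 3.15 and 4.32 CPM for Il1b and 1.85, 3.85 and 6.04 for Tnf). Cxcl16, a membrane-bound chemokine, fell from 108, 90.0 and 74.1 to 39.9, 32.7 and 38.2 CPM. Cxcl9 fell from 17.9, 37.6 and 29.4 to 0.369, 3.06 and 1.33 CPM, and both stayed above control. The 3 higher genes, named after their values were seen, were Ccl3, Il15 and Cxcl13. Inflammasome genes gave 5 lower (38.5%) and 1 higher (7.69%) of 13 tested. Mefv, which encodes pyrin, fell from 32.2, 31.4 and 20.2 to 0, 0.765 and 0 CPM. Nlrc4 fell from 11.7, 5.59 and 6.22 to 0 in all 3 libraries, at least 38.0-fold, and the membrane-rupture gene Ninj1 from 32.7, 29.6 and 30.8 to 12, 9.37 and 5.58 CPM. The higher one was Casp8.

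Part of the feedback inhibitors were lowered. Of 25 tested inflammatory brakes 11 were lower (44%), 3 higher (12%, against 17.6% of all tested genes) and 11 not called. The higher count was 1 without acute replicate 1, acute replicate 2 or remission replicate 3. Il1rn, the interleukin 1 receptor antagonist, fell from 52.1, 50.9 and 30.2 to 2.21, 1.53 and 0.266 CPM. The decoy receptor Il1r2 fell from 48.8, 36.5 and 15.7 to 0.369, 0 and 1.33 CPM. Cish, a cytokine signalling inhibitor, fell from 41.2, 32.0 and 21.9 to 0.923, 0.574 and 2.39 CPM. Irak3, which restrains Toll-like receptor signalling, fell from 20.8, 16.5 and 15.1 to 3.14, 3.44 and 3.72 CPM. The sum of the brakes was 1404 to 1590 CPM in acute and 918, 1161 and 1872 CPM in remission replicates 1 to 3, so remission replicate 3 lay above every acute library. Of 18 tested Toll-like receptors and adaptors 3 were lower (16.7%) and 4 higher (22.2%), near the shares of all tested genes (19.4% and 17.6%). The higher count was 2 without acute replicate 1 or remission replicate 2. Myd88, the shared adaptor, fell from 28.3, 26.4 and 28.2 to 7.38, 9.18 and 11.2 CPM. Tlr8 fell from 17.1, 12 and 8.60 to 0, 1.15 and 1.06 CPM, while the endosomal receptor Tlr9 rose from 66.9, 68.7 and 82.7 to 131, 102 and 134 CPM. Its chaperone Unc93b1 rose from 255, 290.4 and 299 to 414, 388 and 446 CPM. Of 13 tested chemokine receptors 8 were lower (61.5%) and 2, Cx3cr1 and C3ar1, higher (15.4%, near the 17.6% of all tested genes). The higher count was 1 without any single acute library or without remission replicate 2 or 3. Fpr1, a formyl peptide receptor, fell from 10.9, 11.2 and 8.30 to 0.554, 0.383 and 0.266 CPM. Cxcr2 fell from 9.60, 9.59 and 3.85 to 0.369, 0.191 and 0 CPM.

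Antigen presentation was lowered in part. Of 17 tested MHC class I genes 13 were lower (8 lower with library totals alone), and 11 of the 17 stood above control in remission. Nlrc5, the class I transactivator, fell from 304, 341 and 311 to 105, 125 and 90.3 CPM, still over its control values of 11.7, 14.0 and 13.4. The peptide transporter Tap1 fell from 379, 331 and 369.9 to 87.5, 99.3 and 97.0 CPM. Its partner Tapbp fell from 548, 392 and 356 to 164, 147 and 151 CPM. The proteasome activator Psme1 fell from 70.6, 73.0 and 72.6 to 29.7, 27.9 and 23.4 CPM. H2-Q7, a class Ib gene with close copies that may share its reads, stood at 40.7, 46.1 and 41.5 CPM in acute and 40.8, 32.7 and 43.3 in remission against 0.569, 0.350 and 1.51 in control. Of 13 tested MHC class II genes 8 were lower and 1, H2-Ob, was higher; the higher count was 0 or 2 under several single-library exclusions (0 without control replicate 1, acute replicate 1 or 2, or remission replicate 1 or 2, and 2 without acute replicate 3). The peptide exchange genes H2-DMa and H2-DMb1 fell from 85.1, 87.1 and 87.4 to 48.9, 38.8 and 31.9 CPM and from 30.4, 40.5 and 41.5 to 16.2, 23.3 and 11.9 CPM. H2-DMb2 and the lysosomal thiol reductase Ifi30 also fell, Ifi30 from 88.7, 95.9 and 83.6 to 31.4, 23.7 and 25.8 CPM.

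The class II molecules themselves stayed above control. H2-Aa, named after its values were seen, fell from 392, 460.4 and 507 to 178, 174 and 110 CPM (-1.55 ± 0.31, adjusted p = 0.00305) with a control mean of 0.119 CPM, and H2-Ab1 and H2-Eb1 did likewise. Cd74, the class II invariant chain, was not called between the phases. In control it stood at 13.5, 21.6 and 21.4 CPM. It reached 1439, 1415 and 2137 CPM in acute and 1694, 1406 and 1245 in remission (-0.20 ± 0.29, adjusted p = 0.625). The sign of that difference turned with library totals alone (0.12). Ciita, the class II transactivator, fell from 67.7, 103 and 129 to 9.97, 14.7 and 12.2 CPM. Of 14 tested co-stimulatory and checkpoint genes 4 were lower and 4 higher (28.6% each, against 19.4% and 17.6% of all tested genes). Cd40 fell from 21.3, 24.0 and 16.6 to 1.11, 0.957 and 1.33 CPM. Cd274, for the checkpoint ligand PD-L1, fell from 199.7, 162 and 152 to 22.0, 19.3 and 26.0 CPM, while Vsir, an inhibitory receptor of resting microglia, returned from 224, 228 and 279.8 to 734, 843 and 869 CPM.

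Biosynthetic and energy genes fell together. Of 20 tested glycolysis genes 13 were lower and 2 higher (median -1.07), of 26 nuclear-encoded respiratory chain genes 17 were lower (median -1.03; 10 lower with library totals alone), and of 28 cytosolic ribosomal protein genes 26 were lower (median -0.95). Pkm, for pyruvate kinase, went from 379.8, 406 and 342 to 112, 101 and 97.5 CPM (-1.86 ± 0.15, adjusted p = 9.74e-09). Ldha, for lactate dehydrogenase, went from 151, 163 and 127 to 48.0, 44.6 and 44.6 CPM. Eno1 went from 286, 226 and 241 to 82.9, 56.4 and 67.2 CPM. Gpi1, for glucose-6-phosphate isomerase, went from 170.4, 169 and 179.6 to 81.4, 85.1 and 82.6 CPM, and it, Ldha and Pkm stayed above control. The 2 higher glycolysis genes were Pfkfb3 and Pfkfb4, which set fructose 2,6-bisphosphate. Atp5a1 and Atp5c1, subunits of ATP synthase, fell from 145, 137 and 135 to 79.0, 65.8 and 58.2 CPM and from 51.1, 59.4 and 55.4 to 27.5, 26.8 and 28.4 CPM. Sdhd and Uqcrfs1, of complexes II and III, fell by 1.32 and 1.42 on the log2 scale. Rplp0, of the ribosomal stalk, fell from 429.6, 383 and 392 to 163, 115 and 147 CPM. Rpl5 fell from 221, 224 and 222 to 128, 101 and 119 CPM, both above control, as were 22 of the 28 ribosomal genes; Rpl8 and Rps18 fell by 1.38 and 1.23 and were not called against control. Reads of ribosomal protein genes can be shared with their many pseudogenes.

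Cholesterol synthesis and cell division genes were lowered too. Of 22 tested cholesterol genes 13 were lower (7 with library totals alone, where 1 was higher, and 8 without acute replicate 1). Mvd fell from 15.3, 15.4 and 18.4 to 3.51, 4.40 and 2.12 CPM. The sterol sensor Insig1 fell from 30.4, 21.9 and 20.8 to 12.4, 11.1 and 6.38 CPM. Hsd17b7 fell by 2.25 on the log2 scale. Of 18 tested G2 and M phase genes 13 were lower (4 under the stricter filter on low counts), among them Kif11, a spindle motor, at 5.45, 4.8 and 11.3 CPM in acute and 0.738, 0.191 and 0.266 in remission, and Cenpe, Tpx2 and Ccnb1, the last with a single remission count. Of 20 S phase genes 9 were lower and 1, Mcm7, higher, a call that was lost without control replicate 3, any single acute library or remission replicate 1 or 2. Uhrf1, which maintains DNA methylation, went from 13, 7.73 and 14.2 to 0.923, 0.191 and 0.531 CPM. The helicase gene Mcm6 went from 11.2, 9.32 and 9.78 to 1.85, 1.91 and 1.06 CPM; Chaf1a and Hells fell by 2.93 and 1.73.

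Some acute genes kept part of their rise. Besides Acod1, the genes with the largest falls that remained above control were Cd38, an NAD-degrading enzyme, at 85.6, 63.1 and 47.1 CPM in acute and 0.554, 0.957 and 0.531 in remission, the aminopeptidase Anpep at 83.8, 107 and 74.1 CPM in acute and 1.48, 1.91 and 3.72 in remission, the transcription factor Trps1 at 70.0, 69.3 and 47.1 CPM in acute and 3.69, 0.765 and 0.797 in remission, and Mcemp1 at 39.7, 25.0 and 16.3 CPM in acute and 0.923, 0.191 and 0.531 in remission. Those remission levels are a few counts per library. Iron storage genes held more: Fth1, ferritin heavy chain, fell from 874, 647 and 672 to 210.4, 155 and 224 CPM with control values of 60.0, 58.2 and 87.6, and Ftl1 from 203, 209.7 and 203 to 107, 92.6 and 126. Slc40a1, the iron exporter ferroportin, went the other way, from 4.15, 6.13 and 8.60 to 43.8, 54.1 and 53.1 CPM, and Hmox1, which breaks down heme, fell from 33.2, 23.4 and 24.9 to 10.9, 12.6 and 17.8 CPM. In all 6 of 15 tested iron and heme genes were lower (40%) and 2 higher (13.3%), against 19.4% and 17.6% of all tested genes. The higher count was 1 without acute replicate 1 or 2 or remission replicate 1 or 3. Lgals3, for galectin 3, fell from 150.2, 122 and 112 to 9.04, 5.74 and 4.78 CPM (-4.26 ± 0.27, adjusted p = 9.15e-09) and stayed above control.

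A smaller group passed below control. Smpdl3b, a lipid-modulating phosphodiesterase, stood at 4.41, 4.38 and 6.26 CPM in control, 32.4, 22.1 and 18.7 in acute and 0.923, 0.191 and 0.531 in remission. Cdkn1a, the cell cycle inhibitor p21, stood at 4.27, 6.83 and 9.71 CPM in control, 22.1, 16.0 and 14.5 in acute and 2.40, 2.30 and 1.86 in remission, and the AP-1 gene Fosl2 at 16.2, 15.1 and 18.1 CPM in control, 94.7, 62.1 and 55.7 in acute and 7.57, 9.37 and 11.7 in remission. Tagln2 and Klf10 followed the same order. Without an acute rise, Ccnd2, a G1 cyclin, fell from 51.6, 52.2 and 42.1 to 3.69, 11.7 and 5.84 CPM, below its control values of 38.8, 31.2 and 31.5, and Ccr1 from 91.8, 73.5 and 57.5 to 12.9, 9.95 and 14.1 CPM; Tes, Emp3 and Mctp1 fell by 2.44, 2.40 and 1.61. The genes that fell at both steps were Rasgrp4, Il7r, Chsy1, Il17ra, Reep5 and, named after its values were seen, Cd164. Rasgrp4, a Ras activator, stood at 18.2, 27.9 and 20.9 CPM in control, 14.8, 12.8 and 11.3 in acute and 4.25, 4.40 and 2.66 in remission, and Il7r, the interleukin 7 receptor, at 27.2, 35.8 and 22.7 CPM in control, 16.1, 19.2 and 12.2 in acute and 5.17, 7.08 and 5.05 in remission.

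Homeostatic microglial genes came back. Of 27 tested members 26 were higher in remission than acute (median log2 fold change 1.85), and 10 of the 27 were still below control. Lag3, 1 of the 26, had no acute call and ended above control, so it is described below among the newly gained genes. Fcrls, an Fc receptor-like gene of microglia (ENSMUSG00000015852, chromosome 3, 87250758 to 87263738), stood at 0, 0.799 and 0.296 CPM in acute and 107, 92.6 and 117 in remission (8.08 ± 0.38, adjusted p = 1.26e-10), overlapping its control values of 93.5, 103 and 114. Olfml3, a secreted olfactomedin-like protein, rose from 2.08, 4 and 5.33 to 172, 117 and 169 CPM (5.34 ± 0.24, adjusted p = 7.72e-12) and stopped short of control at 282, 285 and 304. P2ry12, the ADP receptor that directs process movement, rose from 45.6, 71.7 and 82.1 to 334, 312 and 328 CPM against 573, 746 and 719 in control, and Tmem119 from 145, 177 and 238 to 458, 579 and 564 against 894, 1007 and 1016. Cx3cr1, the fractalkine receptor, rose from 309.5, 398 and 586 to 1579, 1498 and 1588 CPM and was not called against control. Gpr34, a lysophosphatidylserine receptor, rose from 22.3, 16.0 and 25.5 to 176, 148 and 169 CPM. Cst3, for cystatin C, rose from 132, 128 and 175 to 972, 858 and 888 CPM, both below control. The list's sum was 3749 to 5777 CPM in acute, 13310 to 14020 CPM in remission and 16470 to 19140 CPM in control, so no 2 groups overlapped. The monocyte sum moved the opposite way, as given above, and its part in this rise was not tested.

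Beyond that list, the largest rises were St8sia6, a sialyltransferase, from 0.519, 0 and 0.296 to 18.6, 8.42 and 8.23 CPM, 44.7 times higher on 3 acute counts (95% counting interval 15.1 to 219), and Tcim, from 0.519, 0 and 0.296 to 7.20, 9.95 and 16.5 CPM, 38.9 times higher (interval 13.1 to 191, also on 3 acute counts). St8sia6 remained under control at 46.8, 51.7 and 66.0. Col27a1, a fibrillar collagen gene, rose from 12.2, 13.1 and 14.8 to 178, 185 and 196 CPM. Csmd3 rose from 4.41, 8.53 and 15.1 to 79.2, 89.3 and 81.8 CPM, which left Csmd3 far under its control values of 312, 519.6 and 359. Gpr153 rose by 3.36 on the log2 scale and also stayed below control. Cfap74 rose from 1.82, 4 and 3.85 to 71.2, 86.1 and 70.1 CPM. Sncaip rose from 0.259, 0.533 and 1.78 to 17.7, 10.9 and 16.2 CPM. The transporter Abca9 rose from 15.3, 38.1 and 45.0 to 335, 435 and 472 CPM, and these were not called against control. Of 10 listed B and plasma cell genes only 3 passed the filter on low counts (Blnk, Ighm and Cd79b), and all 3 were higher. Blnk stood at 12.2, 16.2 and 25.5 CPM in acute and 87.7, 76.3 and 130.2 in remission, against 70.1, 85.2 and 89.8 in control. Ighm rose by 1.22 and Cd79b by 2.16, the latter lost without acute replicate 1. Of 7 tested dendritic cell markers 2 were higher (28.6%) and 1, Clec10a, lower (14.3%), with a median of -0.46. Fscn1, an actin bundler, rose from 19.7, 25.0 and 27.0 to 91.4, 75.4 and 80.8 CPM. The call on Zbtb46 (0.75, adjusted p = 0.0319) was lost without any single acute library or remission replicate 2 or 3. The lower count was 3 or 4 without any 1 control or remission library or acute replicate 3. Flt3 was at 5.45, 7.99 and 3.85 CPM in acute and 4.43, 1.53 and 2.12 in remission and was not called.

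The transcription factors that set microglial identity rose as well: 13 of 20 tested were higher and 1, Spi1, lower (0 lower without remission replicate 2). Sall1, a repressor that defines microglia among macrophages, rose from 56.0, 95.9 and 97.2 to 250.5, 279.5 and 239.9 CPM (1.63 ± 0.21, adjusted p = 1.67e-05). Mef2c rose from 80.4, 79.7 and 98.4 to 245, 211 and 233 CPM. Cebpa rose from 43.8, 47.4 and 49.5 to 89.3, 99.7 and 145 CPM. Spi1, which encodes PU.1, was at 72.1, 71.4 and 66.4 CPM in acute and 59.8, 41.1 and 46.5 in remission. Smad3, which carries the TGF-beta signal to the nucleus, rose from 24.1, 32.8 and 28.5 to 78.5, 62.6 and 91.4 CPM. Of 16 tested TGF-beta pathway genes 7 were higher (11 higher with library totals alone): the receptors Tgfbr1 and Tgfbr2 rose from 292, 270.4 and 324 to 790.4, 915 and 908 CPM and from 186, 225 and 258 to 441, 421 and 431 CPM, and Smad7, a feedback inhibitor, from 37.6, 39.7 and 37.0 to 78.8, 67.7 and 82.3 CPM.

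Receptors for engulfment moved in both directions. Of 21 tested, 8 were higher (38.1%, against 17.6% of all tested genes) and 5 lower (23.8%, near the 19.4% of all tested genes). Their median was slightly negative (-0.05). Trem2, a lipid-sensing receptor, rose from 64.3, 90.3 and 118 to 444, 442 and 372 CPM (2.21 ± 0.18, adjusted p = 4.35e-08) against 326, 379 and 346 in control, the integrins Itgb5 and Itgb3 from 161, 274 and 315 to 876, 871 and 887 CPM and from 5.71, 7.99 and 7.71 to 41.0, 32.3 and 31.9 CPM, and the efferocytosis kinase Mertk from 149, 154 and 185 to 295, 441 and 395 CPM. Its relative Axl did not follow: it stood at 338, 398 and 378 CPM in acute and 488, 369.6 and 337 in remission, against a control mean of 28.4. The 5 lower genes, named after their values were seen, were Cd36, Msr1, Olr1, Cd300lf and Clec7a. Of 8 tested Fc receptor genes 4 were lower (50%) and 2 higher (25%), against 19.4% and 17.6% of all tested genes. Library totals alone gave 2 lower, and the stricter filter gave 1 higher. The inhibitory receptor Fcgr2b fell from 167, 158 and 128 to 44.9, 45.1 and 69.6 CPM. The signalling chain Fcer1g fell from 89.0, 85.3 and 87.7 to 58.3, 55.9 and 50.5 CPM. Fcrl1 rose from 0.259, 1.33 and 0.889 to 4.43, 7.08 and 6.64 CPM beside Fcrls. Of 15 complement genes 7 were lower (46.7%) and 4 higher (26.7%), with 7 higher by library totals alone and 4 lower under the stricter filter. C1qb rose from 281, 370.1 and 464 to 669, 726 and 711 CPM, while Cfp, for properdin, fell from 20.8, 17.9 and 25.5 to 1.29, 0.191 and 1.33 CPM. Cfb fell from 7.26, 7.99 and 5.04 to 0.738, 0.383 and 0 CPM. C3, named after its values were seen, fell from 491, 488 and 462 to 197, 178 and 196 CPM with a control mean of 2.87.

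**Figure D4:**
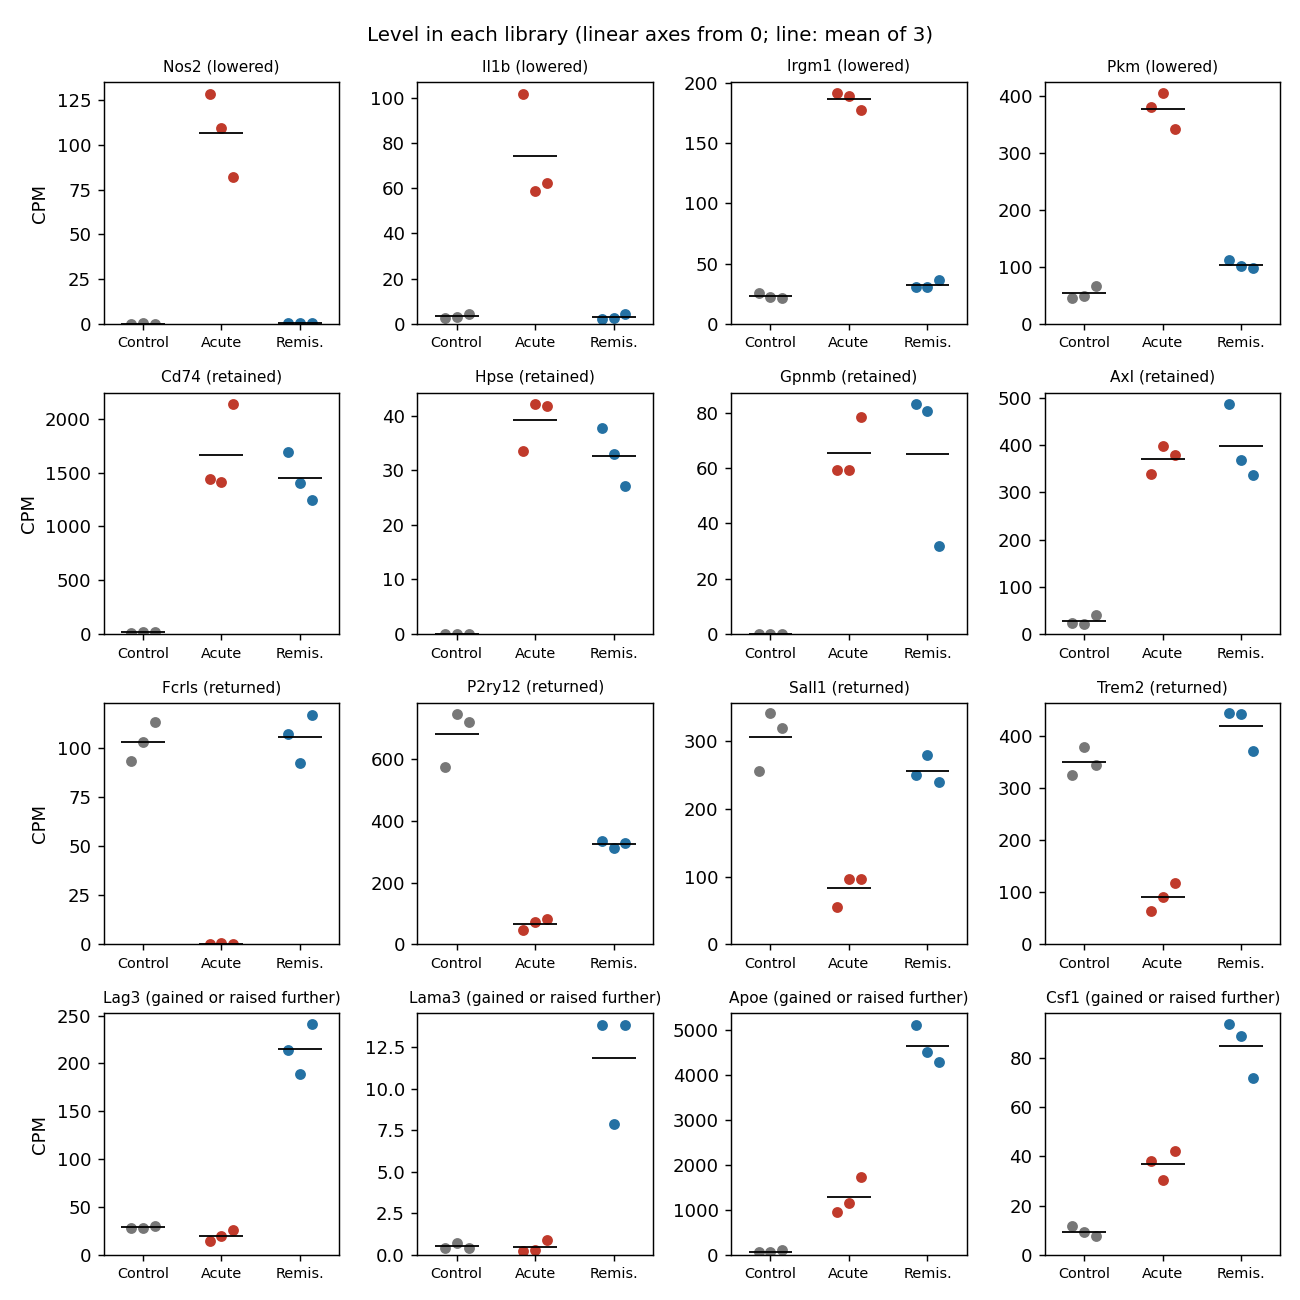
Level in CPM (y axes, linear from 0) of 16 genes in each control, acute and remission library (x axis; points are libraries, lines are means of 3): the rows show lowered, retained, returned and gained genes. Nos2 and Il1b drop and are not called against control, and Hpse and Cd74 are not called between acute and remission. Fcrls and Sall1 rise back, and Lag3 and Apoe lie higher in remission than in both other groups.

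What remission gained was small in number. The 114 newly gained genes rose by a median of 0.93 over acute and 0.96 over control. Lag3, an inhibitory receptor that binds MHC class II (ENSMUSG00000030124, chromosome 6, 124904361 to 124911705), stood at 28.3, 27.7 and 30.2 CPM in control, 14.3, 19.4 and 25.8 in acute and 214, 189 and 241 in remission (3.44 ± 0.27, adjusted p = 4.35e-07; over control 2.90, adjusted p = 5.15e-06). Lama3, a laminin chain, stood at 0.427, 0.701 and 0.432 CPM in control, 0.259, 0.266 and 0.889 in acute and 13.8, 7.84 and 13.8 in remission, and Gpr162, an orphan receptor, at 6.40, 7.01 and 8.85 CPM in control, 5.19, 2.93 and 3.85 in acute and 30.5, 24.1 and 44.4 in remission. The remission libraries of these 3 genes lay above all acute and control libraries. Lpl, lipoprotein lipase, stood at 5.69, 3.50 and 3.02 CPM in control, 2.33, 1.86 and 1.19 in acute and 57.0, 35.2 and 14.1 in remission; its remission libraries spread widely, and with limma-voom it was not called (adjusted p = 0.104). Ccl3, a chemokine, stood at 1.82, 1.07 and 5.93 CPM in acute and 17.4, 8.99 and 18.9 in remission. Spp1, for osteopontin, named after its values were seen, followed Lpl in its spread, at 6.23, 12.3 and 10.4 CPM in acute and 70.5, 40.9 and 19.1 in remission (2.20 ± 0.56, adjusted p = 0.0143). Slc1a3, a glutamate transporter, rose from 35.5, 46.9 and 50.7 to 72.9, 129.5 and 73.3 CPM, a call lost without acute replicate 1 or 2 or remission replicate 2. The co-stimulatory gene Cd86 stood at a control mean of 42.9 CPM, 49.5, 49.5 and 49.5 in acute and 74.2, 71.5 and 74.4 in remission.

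Lipid handling was led by Apoe. Of 22 tested lipid efflux and storage genes 7 were higher (31.8%) and 4 lower (18.2%, near the 19.4% of all tested genes), with 11 higher by library totals alone. Against control 12 were above in remission, of which 2, Abca1 and Apoe, had risen in acute and rose again and 6 were retained. Apoe, the main lipid carrier of the brain (ENSMUSG00000002985, chromosome 7, 19696109 to 19699188), stood at 53.3, 53.5 and 108 CPM in control, 960.3, 1154 and 1722 in acute and 5112, 4515 and 4297 in remission (1.86 ± 0.35, adjusted p = 0.00205), with no overlap between any of the groups. Abca1, which loads cholesterol onto it, rose from 225, 211 and 228 to 448, 411 and 459.8 CPM; it and the next gene were named after their values were seen. Abcg1, the second efflux pump, stood at 79.6, 87.9 and 80.6 CPM in acute and 92.1, 71.5 and 80.5 in remission and was not called. Nrp1, a coreceptor, rose from 39.4, 66.3 and 74.1 to 177, 138 and 158 CPM. Mylip, a ubiquitin ligase, rose from 35.8, 43.4 and 54.2 to 93.0, 92.4 and 91.6 CPM. Plin2, which coats lipid droplets, fell from 25.2, 38.6 and 36.8 to 12.4, 11.9 and 9.83 CPM. The list's sum ran from 2168 to 3078 CPM across the acute libraries and from 6307 to 7152 CPM across those of remission. Apoe alone made up most of that difference: without it the sums were 1208 to 1356 CPM in acute, 1939 to 2040 CPM in remission and 1290 to 1406 CPM in control.

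Of 39 tested lysosomal genes 17 were higher than acute (43.6%, against 17.6% of all tested genes) and 8 lower (20.5%, near the 19.4% of all tested genes; 4 with library totals alone), and 21 were above control. Hexa, a lysosomal glycosidase gene, rose from 41.5, 71.9 and 84.8 to 233, 194 and 208 CPM and was not called against control. Tpp1, a tripeptidyl peptidase, rose from 42.8, 58.1 and 53.6 to 154, 127 and 142 CPM, above its control values of 89.5, 89.5 and 100.3, and Ctsf from 9.08, 10.1 and 19.0 to 49.1, 67.3 and 60.8 CPM. Of the genes whose promoter pieces are printed above, the protease gene Ctsd rose from 456, 549 and 716 to 1575, 1578 and 1460 CPM and passed its control mean of 881. Ctsa, Naglu and Glb1 rose by 1.08, 0.72 and 1.40 on the log2 scale. Of the 3 other members with the motif, Lgmn rose by 0.50, Gla fell by 1.17, and Lamp1 was not called, at 316, 282 and 335 CPM in acute and 355, 302 and 280.2 in remission, so motif-bearing genes did not move in 1 direction. The newly gained members were 6: Cd68, Ctsa, Ctsl, Gaa, Mitf and Naglu. Mitf, a regulator of lysosomal genes, stood at 23.1, 28.8 and 31.4 CPM in acute and 45.4, 43.2 and 55.5 in remission (0.79 ± 0.18, adjusted p = 0.0019).

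Of 30 tested genes of the damage-associated program 14 were higher than acute (46.7%) and 8 lower (26.7%), and 24 stood above control in remission. The program therefore moved in both directions. Lower members included Lgals3, Fth1 and Clec7a, and members retained above control without a call against acute included Axl, Gpnmb and Itgax. The sum of the list was 6010 to 7026 CPM in acute, 10340 to 12260 CPM in remission and 2722 to 3406 CPM in control. Without Apoe it was 5050 to 5304, 6047 to 7149 and 2669 to 3298 CPM in the same order. Much of the rise without Apoe lay in Ctsd and Trem2, which had been below control in acute and whose values are given above. Among members raised at both steps, named after their values were seen, Csf1, a growth factor for microglia, stood at a control mean of 9.47 CPM, 37.9, 30.4 and 42.1 in acute and 93.6, 88.8 and 71.7 in remission (1.21 ± 0.19, adjusted p = 6.78e-05), and Igf1, an insulin-like growth factor, at a control mean of 0.0474 CPM, 0.519, 0.266 and 1.19 in acute and 13.5, 10.3 and 5.58 in remission (3.90 ± 0.53, adjusted p = 9.02e-06). Ctsb and Cd63 rose by 0.90 and 0.76. Timp2, a metalloproteinase inhibitor, and the tetraspanin Cd9 had been below control in acute and ended above it: Timp2 at 105, 100.1 and 119 CPM in control, 57.3, 67.1 and 70.0 in acute and 151, 152 and 161 in remission and Cd9 at 73.7, 111 and 85.2 CPM in control, 46.2, 41.8 and 51.0 in acute and 188, 165 and 153 in remission. Serpine2, a protease inhibitor with the largest rise of that class, stood at 34.3, 43.5 and 42.5 CPM in control, 5.19, 4.26 and 5.04 in acute and 70.7, 77.1 and 73.3 in remission, and the activation marker Cd83 at 43.1, 35.2 and 47.3 CPM in control, 17.4, 12.3 and 22.2 in acute and 91.7, 68.5 and 85.3 in remission. Adcy3 and Maged1 rose by 1.86 and 1.83. Besides Apoe, the genes with the largest second rise at 10 CPM or more were Etl4 (3.37, 5.86 and 4.45 to 20.5, 19.3 and 21 CPM), the sulfotransferase Chst2 (26.2, 17.1 and 22.2 to 81.6, 58.5 and 77.6), the ubiquitin ligase Rnf186 (4.93, 5.06 and 5.04 to 11.1, 15.1 and 15.7) and Pdcd1, which encodes PD-1 (3.37, 5.86 and 6.82 to 21, 18.0 and 7.44).

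Of 22 tested growth and repair factors 10 were higher (45.5%) and 9 lower (40.9%), against 17.6% and 19.4% of all tested genes. Thbs1, a matrix glycoprotein, fell from 72.4, 57.5 and 51.6 to 4.43, 7.65 and 9.83 CPM. The protease gene Mmp14 fell from 175, 148 and 158 to 42.1, 48.6 and 38.8 CPM. Adam8 fell from 51.4, 41.8 and 35.6 to 5.17, 6.89 and 4.52 CPM. Vegfa, named with the next genes after its values were seen, fell from 17.6, 9.59 and 15.4 to 1.29, 3.06 and 1.59 CPM while Vegfb rose from 5.97, 3.73 and 9.19 to 14.2, 10.9 and 14.6. Pdgfb rose from 10.4, 11.2 and 25.5 to 73.3, 67.3 and 76.5 CPM (2.22 ± 0.40, adjusted p = 0.00157) against a control mean of 91.4.

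Retained genes kept an acute rise that was not called different in remission. Hpse, which encodes the matrix-cleaving heparanase, had no count in control and stood at 33.5, 42.1 and 41.8 CPM in acute and 37.6, 32.9 and 27.1 in remission. Gpnmb, a lysosomal membrane glycoprotein, stood at a control mean of 0.178 CPM, 59.1, 59.1 and 78.2 in acute and 83.1, 80.7 and 31.9 in remission, with remission replicate 3 the low library. P2ry14, a receptor for UDP-sugars, stood at 26.5, 34.4 and 46.5 CPM in acute and 28.4, 27.4 and 21.2 in remission. Itgax, which encodes CD11c, missed the call narrowly (1.28 ± 0.44, adjusted p = 0.0503) at 45.9, 59.4 and 48.9 CPM in acute and 168, 121 and 83.9 in remission.

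The 305 genes above acute that had no acute call and were not called above control rose by a median of 0.85. Ctla2b, a cathepsin inhibitor-like gene, rose from 4.41, 5.06 and 5.04 to 11.3, 14.2 and 11.2 CPM, a call lost without acute replicate 1, and Nat8l, which makes N-acetylaspartate, from 4.15, 9.59 and 8.60 to 17.2, 15.1 and 22.1 CPM. Usp11, Tha1 and the Polycomb gene Cbx7 rose by 1.21, 1.17 and 1.16.

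**Figure D5:**
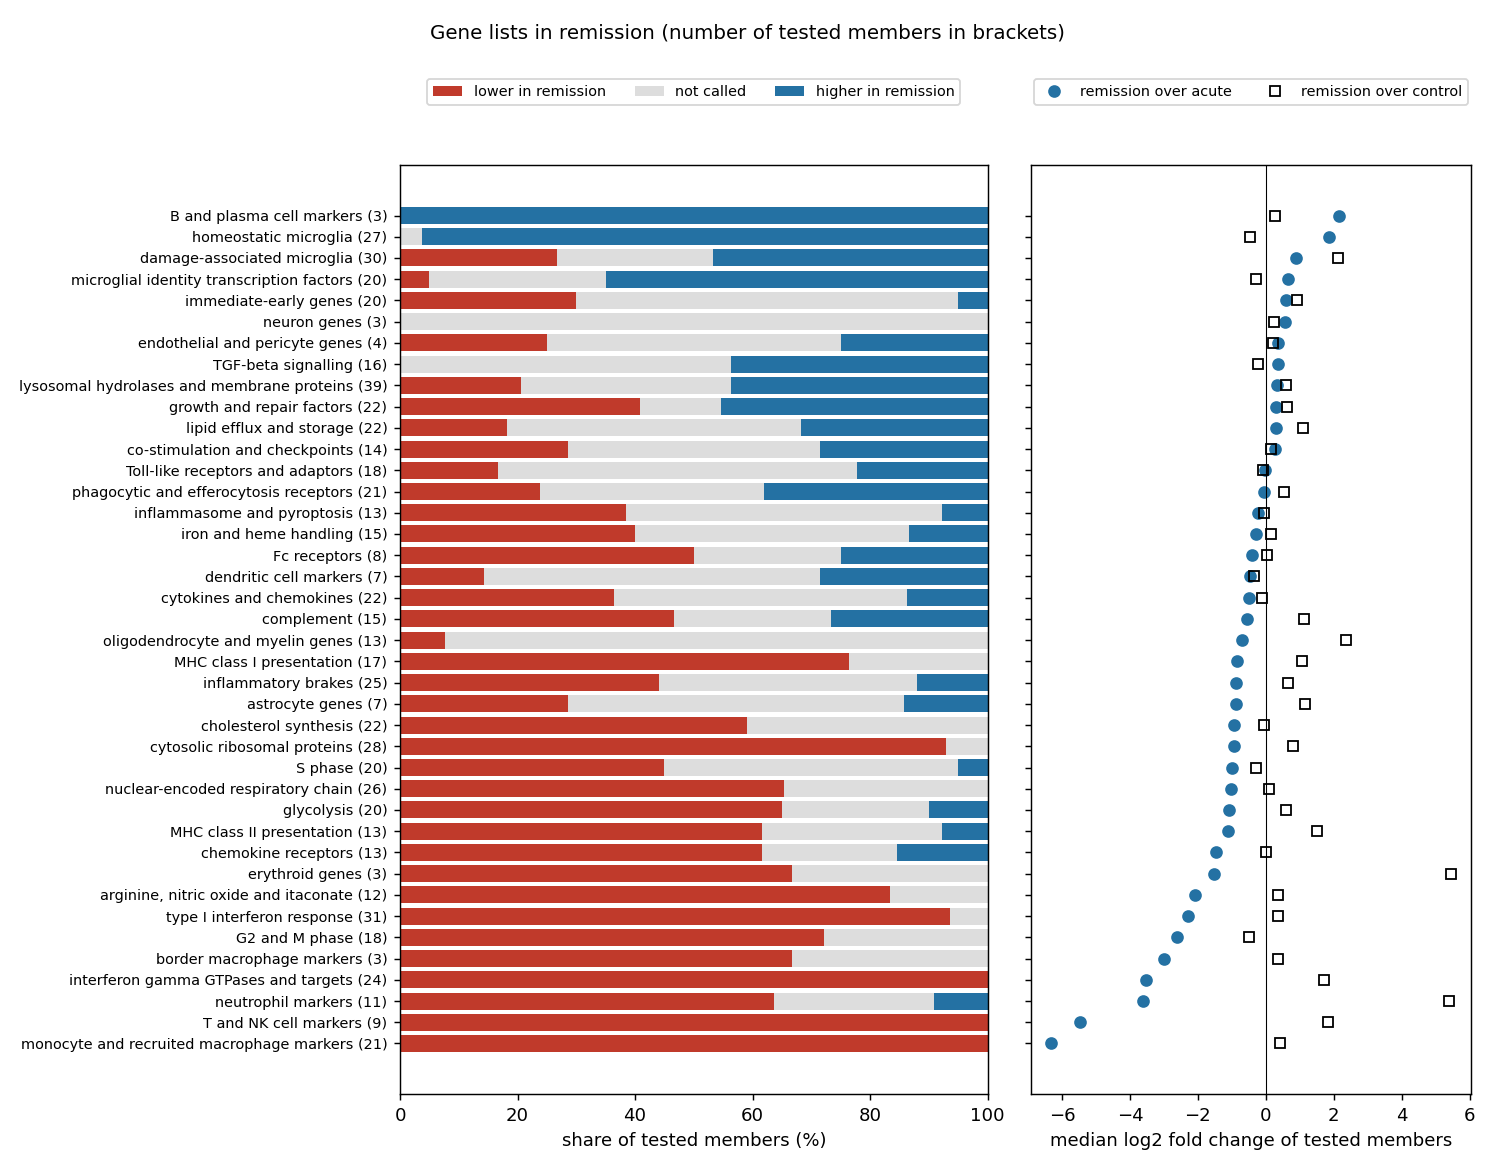
Left, share of tested members of each of the 40 gene lists (x axis, percent; tested members in brackets) called lower, not called or called higher in remission than acute. Right, the list's median log2 fold change (x axis) over acute (filled circles) and over control (open squares): homeostatic genes lie at 1.85 over acute and slightly under control, and interferon gamma genes at -3.51 over acute and above control.

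Genes of other cells of the spinal cord depended on single libraries. Of 13 tested oligodendrocyte and myelin genes 1, Cldn11, was lower (43.6, 18.9 and 24.6 to 9.04, 0.957 and 2.66 CPM), and 10 were lower without remission replicate 1, whose sum of 755.5 CPM stood over 75.8 and 154 CPM in the other remission libraries and 474 to 643 CPM in acute. Mobp, a myelin protein gene, was at 78.6, 89.5 and 76.8 CPM in acute and 64.2, 2.49 and 2.92 in remission, and Ermn and Pdgfra showed the same high library. Of 7 astrocyte genes 2, Gfap and Aldh1l1, were lower (28.6%) and 1, Slc1a3, higher (14.3%), against 19.4% and 17.6% of all tested genes. Without remission replicate 1, 6 were lower, and without any other single library of the 3 groups 1 was. The higher call was lost without acute replicate 1 or 2 or remission replicate 2. Gfap went from 90.8, 73.0 and 91.0 to 40.0, 2.30 and 5.05 CPM. Aldh1l1 went from 14.3, 9.86 and 21.6 to 6.83, 6.89 and 5.05; Aqp4 was not called. The neuron genes Nefl, Map2 and Snap25 were not called (adjusted p = 0.322, 0.578 and 0.653). Of 3 tested border macrophage markers F13a1 and Siglec1 were lower, Siglec1 at 107, 141 and 94.6 CPM in acute and 15.1, 16.1 and 10.9 in remission, and Stab1 was not called; 4 were lower without any single control library, acute replicate 1 or remission replicate 1. Of 4 endothelial and pericyte genes Pecam1 was lower and Pdgfrb higher (the latter lost without acute replicate 1 or 3 or remission replicate 3), and Flt1 and Kdr were not called. Of 3 erythroid genes Alas2 and Hba-a1 were lower and Hbb-bs was not called at 17.4, 49.3 and 8.30 CPM in acute and 23.1, 0.765 and 1.33 in remission, with 0 or 1 lower without acute replicate 1 or 2 or remission replicate 2 or 3. The erythroid sum was 38.95 CPM in remission replicate 1, 4.78 and 4.25 CPM in the other remission libraries and 19.3 to 73 CPM in acute. The part of these cells' RNA in other results was not tested.

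Immediate-early genes, which respond within minutes to handling or stimulation, gave 6 lower and 1 higher of 20 tested, with 4 and 2 higher without remission replicate 1 and 2, 0 higher without acute replicate 1 or 2, and 5 higher by DESeq2. Klf6 fell from 131, 124.4 and 111 to 58.7, 57.4 and 82.9 CPM. Ier3 fell from 14.3, 12.5 and 8.60 to 1.11, 1.91 and 2.66 CPM. Nr4a1 fell from 9.60, 8.53 and 6.82 to 1.29, 1.53 and 2.92 CPM. Nr4a3 fell from 5.19, 5.06 and 4.15 to 0.923, 0.191 and 0 CPM. Fos, named after its values were seen, stood at 33.5, 19.2 and 24.9 CPM in acute and 8.12, 13.6 and 139 in remission, so remission replicate 3 stood far above the rest. The list's sum was 409.6 and 445.7 CPM in remission replicates 1 and 2 and 1775 CPM in replicate 3, and its median, opposite in sign to the counts of calls, went from 0.59 to -0.76 without replicate 3.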

How the data were processed

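RNA from sorted microglia was made into Nextera XT libraries, which do not mark strand, and read from one end, per the labels' protocols. The authors deposited raw read counts per gene for 12 libraries, which the submitters' processing notes tie to HISAT2, SAMtools 1.3.1, Picard 2.6.4, HTSeq 0.6.1 and GRCm38; the annotation release is not given in the sources used here. Of 48526 gene identifiers 48144 were matched to GENCODE M21 for symbols and coordinates, and the other 382 held 0.0208% of counts. Reads of antisense, overlapping and near-identical genes cannot be told apart.

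Genes passing edgeR's filter on low counts (12545) were fitted in 1 model of 4 groups over all 12 libraries with TMM scaling and the robust quasi-likelihood test of edgeR 4.0.16 (R 4.3.3), Benjamini-Hochberg adjusted, called at 0.05. The procedure was tested on simulated data. Those data changed only a small share of genes, so they do not test the scaling where many genes differ. Log2 fold changes carry the SE of that fit. A listed gene with few or no counts in other groups could pass the filter only through the group where it was high. Counts of tested list members called in a direction are therefore partly set by the filter. Libraries within a group are separate mice as far as the study counts them, and their replicate numbers follow accession order. For a gene without counts in a group, folds use 3 counts for the group as a whole; 1 to 3 counts carry a 95% exact interval. Named genes were up to 10 per direction and up to 5 per class by fold change, with groups that did not overlap and the higher mean at 10 CPM or more, and up to 4 members per list by p-value; genes named beyond that rule were chosen after their values were seen. The members, lists and classes were chosen with earlier results of these data known. Promoter windows came from RefSeq (GRCm38.p6), which had one for 8953 of the tested symbols. Alternatives covered scaling, test (DESeq2 1.42.0, limma 3.58.1), filter, model and each library left out. Some genes of the lists are counted there but not reported here by name.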

Additional observations from a re-analysis of the deposited data

How the results depend on the processing

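Across scalings, tests, filters and models other than library totals alone, 1995 to 2318 genes were higher and 2215 to 2586 lower, apart from 2161 lower under the stricter filter and 2166 with only the groups compared. Leaving out 1 library gave 1699 to 2227 higher and 1964 to 2489 lower, lowest without acute replicate 1. Library totals alone gave 3543 higher and 1434 lower, and moved the classes to 858 lowered and not called against control, 184 lowered and still above it, 2759 returned, 459 returned in part, 75 newly gained, 203 above acute but not above control, and 170 retained. The class returned to above control held 38 genes with limma-voom, 39 without a filter and 62 with only the groups compared; the class lowered to below control held 36 without a filter and 46 with only the groups compared. With only the groups compared 230 genes were lowered without an acute rise and 196 were above acute but not above control, and without a filter 416 were retained. Leaving out 1 library gave ranges of 195 to 258 lowered and still above control, 4 to 22 lowered to below it, 2 to 8 lowered further, 96 to 168 returned in part, 7 to 25 returned to above control, 238 to 489 above acute but not above control, 19 to 29 raised further and 172 to 408 retained. The cause of these shifts was not tested.

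Of the named genes under each alternative, 3655 pairs of gene and setting kept their direction and call, 48 lost the call, 15 gained it and 23 changed sign, all in genes that were not called. Gpnmb turned to -0.002034 with DESeq2's size factors, -0.01266 with DESeq2 and -0.102 with limma-voom, and ranged from -0.1747 to 0.3282 with 1 library left out. Ptprc turned to -0.003848, -0.004488 and -0.001106 in the same settings, with a range of -0.09197 to 0.08204. Library totals alone turned Hpse to 0.05813, Cd74 to 0.1213, H2-Q7 to 0.163 and Stab1 to 0.2809. With 1 library left out Cd74 ranged from -0.3058 to 0.02282, Stab1 from -0.3589 to 0.1583, Map2 from -0.6535 to 1.031 and Snap25 from -0.03518 to 1.182, and limma-voom gave -0.7281 for Snap25. Gfap, called at an adjusted p of 0.0374 in edgeR, lost its call in 11 settings. No paired analysis was possible because the replicate numbers follow accession order and tie no libraries together; with the number closing each title as a covariate, 1995 genes were higher and 2215 lower. With 3 libraries a group, levels under about 1 CPM rest on a few counts.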
